A study of Mus musculus with 3 samples.

Results

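Tristetraprolin and its relatives, the BTG antiproliferative factors and the IER genes are early-response genes that were followed here through lipopolysaccharide (LPS) treatment of RAW264.7 cells, a mouse macrophage line. The 8 genes were Zfp36, Zfp36l1, Zfp36l2, Btg1, Btg2, Ier2, Ier3 and Ier5, chosen by name with earlier results of these data known. All probe sets annotated to 1 of them alone were taken, which gave 15 of the 22690 probe sets on the array and 8 of the 12393 named genes. No probe set was shared between one of these genes and another gene. Expression was read before treatment (0 h) and at 2 h and 12 h of LPS, the Gram-negative outer membrane component that Toll-like receptor 4 recognises, with 1 array per time and 3 arrays in all. The labels give no genotype, LPS dose or culture details, and no untreated culture at 2 or 12 h was part of the design, so time in culture and LPS cannot be told apart. All samples are labelled as the same cell line, which stands for macrophages as a single transformed line.

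Tristetraprolin, encoded by Zfp36, is a zinc finger protein that binds AU-rich elements in the 3' untranslated regions of short-lived mRNAs, cytokine mRNAs among them, and brings the CCR4-NOT deadenylase to them so that they decay. Zfp36l1 and Zfp36l2 encode proteins with the same kind of zinc fingers. BTG1 and BTG2 bind the deadenylase subunits of CCR4-NOT and slow proliferation. The IER genes are grouped by their fast induction rather than by a shared fold: IER2 and IER5 are related nuclear proteins, and IER3 (also called IEX-1) modulates apoptosis and NF-kB and ERK signalling. In macrophages tristetraprolin is best known for limiting tumour necrosis factor, and its activity is held down by phosphorylation through the p38-MK2 kinase pathway.

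Signals below are linear and scaled to one trimmed mean per array, and a signal under the floor of 34.96, the 40th percentile of all scaled values, is treated as too low to read. Each time had 1 array, so there are no replicates and no tests, and a gene counts as higher or lower on an array if its signal differs at least 2-fold. The only error that can be read is how far probe sets of the same gene differ. Around the mean of their gene, the log2 differences of probe sets had an SD of 0.32 between the 0 h and 2 h arrays, 0.34 between 0 h and 12 h, and 0.31 between 2 h and 12 h. Variation between cultures was not measured, and fewer cells of a type and less RNA per cell cannot be told apart in RNA from whole cultures. Where a gene had several probe sets, its value is that of the brightest over the 3 arrays, and the others are given beside it. All 10 markers of macrophages checked were above the floor on every array, with a lowest signal of 88.9. Their summed signals were 20033, 20621 and 22377 at the 3 times. Of these markers, 3 were at least 2-fold higher at 12 h than at 0 h, where 3.01% of all measured genes were. Of the markers of other cell types, 0 of 6 for T cells were above the floor on any array, and at most 1 of 4 for B cells, 1 of 5 for fibroblasts and 1 of 4 for epithelium.

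The sequences upstream of the annotated start sites are shown for the 6 of the 8 genes that had a RefSeq window (build GRCm38.p6, 250 bases before to 50 bases after the start), so that the short promoter motifs each holds can be read beside its signals. Those of Ier2 and Zfp36l2 were not used here. The 250 bases before the start are printed 5' to 3' on the gene's strand. They lie at chr7:28379229-28379478 (minus strand) for Zfp36, chr10:96616751-96617000 (plus strand) for Btg1, chr1:134079156-134079405 (minus strand) for Btg2, chr17:35821463-35821712 (plus strand) for Ier3, chr1:155099637-155099886 (minus strand) for Ier5 and chr12:80113014-80113263 (minus strand) for Zfp36l1. Capitals mark matches to a CArG box, the site of serum response factor, or to an EGR site in Zfp36, to CRE cores (the shortened CRE) and a TATA box in Btg1, to a CRE, the site of CREB and ATF factors, and an EGR site in Btg2, to an NF-kB site in Ier3 and to a TATA box in Zfp36l1. Ier5 held none of these.
Zfp36: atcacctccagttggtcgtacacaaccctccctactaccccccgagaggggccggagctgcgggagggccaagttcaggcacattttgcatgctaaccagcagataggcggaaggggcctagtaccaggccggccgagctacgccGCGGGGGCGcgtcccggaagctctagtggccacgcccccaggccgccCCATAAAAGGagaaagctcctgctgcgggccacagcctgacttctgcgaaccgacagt
Btg1: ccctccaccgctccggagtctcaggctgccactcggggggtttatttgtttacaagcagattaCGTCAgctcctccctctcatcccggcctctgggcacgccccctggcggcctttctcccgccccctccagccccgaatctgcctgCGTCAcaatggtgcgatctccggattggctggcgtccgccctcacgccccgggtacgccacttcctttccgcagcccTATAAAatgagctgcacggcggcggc
Btg2: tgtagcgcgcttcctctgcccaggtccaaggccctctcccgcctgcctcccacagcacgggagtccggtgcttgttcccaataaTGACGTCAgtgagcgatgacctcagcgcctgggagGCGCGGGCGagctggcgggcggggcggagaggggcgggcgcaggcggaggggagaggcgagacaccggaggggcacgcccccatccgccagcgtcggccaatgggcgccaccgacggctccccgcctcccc
Ier3: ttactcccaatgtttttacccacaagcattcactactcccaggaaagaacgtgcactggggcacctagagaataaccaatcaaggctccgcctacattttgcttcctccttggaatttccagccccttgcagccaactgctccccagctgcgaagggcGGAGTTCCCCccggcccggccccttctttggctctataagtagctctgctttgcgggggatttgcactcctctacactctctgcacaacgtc
Ier5: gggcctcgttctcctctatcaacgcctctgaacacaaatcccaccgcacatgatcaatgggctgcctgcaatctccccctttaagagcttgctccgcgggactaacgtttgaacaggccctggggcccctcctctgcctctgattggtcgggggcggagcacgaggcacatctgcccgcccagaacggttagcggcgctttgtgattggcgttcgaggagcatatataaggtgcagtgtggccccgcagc
Zfp36l1: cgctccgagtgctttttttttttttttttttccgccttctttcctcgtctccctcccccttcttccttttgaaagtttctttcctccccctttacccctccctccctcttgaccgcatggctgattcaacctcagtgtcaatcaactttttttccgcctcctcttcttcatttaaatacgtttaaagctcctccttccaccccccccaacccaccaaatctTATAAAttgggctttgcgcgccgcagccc

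Among the 6 windows the NF-kB site was matched only in Ier3, from -92 to -83 relative to the start on the strand opposite to the gene, and 4.51% of the 32851 windows of all genes held one. The CArG box was matched only in Zfp36, from -58 to -49, against 1.63% of all windows. The full CRE, TGACGTCA, was matched only in Btg2, from -166 to -159, against 1.79%. The CRE core TGACG was in Btg1, ending at -183 and at -99, and within the CRE of Btg2 on both strands, and 20.8% of all windows held it. The EGR site GCGNGGGCG was in Zfp36 and Btg2 (5.55% of windows), the ETS site CGGAAG in Zfp36 alone (16.9%) and the TATA box TATAAA in Zfp36l1 and Btg1 (13.6%). The common GC box GGGCGG and CCAAT box CCAAT were each in 5 of the 6 windows, against 35.7% and 37.4% of all windows. Both strands were searched, and overlapping matches were each counted. These are matches of letters in a fixed window and do not show that a factor binds there.

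**Figure D1:**
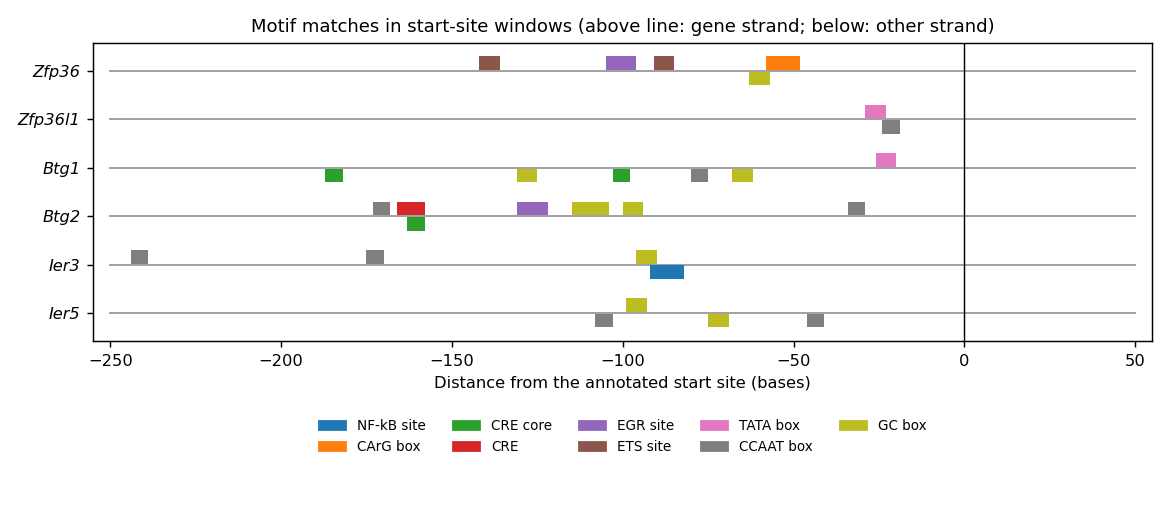
Motif matches in the windows of the 6 genes with a RefSeq sequence, plotted by distance in bases from the annotated start site; blocks above a line are on the gene's strand and blocks below it on the other strand. The NF-kB match of Ier3 begins at -92, the CArG match of Zfp36 at -58 and the CRE of Btg2 at -166.

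After 2 h of LPS, Zfp36, Btg1, Ier2 and Ier3 were at least 2-fold higher than at 0 h and Zfp36l2 was 2-fold lower. Ier3 differed most, at 9.56-fold, and Zfp36 was 3.93-fold higher. That is 4 of 8 genes higher, where 2.09% of 8422 measured genes were, and 1 of 8 lower, where 1.69% were. By probe set, 6 of the 13 with a value were at least 2-fold higher, against 2.25% of all probe sets. The median log2 difference of the 8 genes was 0.96, beside -0.10 for all measured genes. The 8 were chosen as early-response genes with earlier results of these data known. Their shares beside those of all genes therefore describe the genes chosen and are no test. After 12 h, Zfp36 and Ier3 alone among the 8 were still at least 2-fold higher than at 0 h (3.01% of 8629 genes were higher), and none was called 2-fold lower (2.4% of genes were), with Zfp36l1 read only as a bound of at least 1.85-fold. By probe set, 2 of 13 were at least 2-fold higher, against 2.93% of all. The median of the 8 genes was then 0.45, beside -0.05 for all genes. Both comparisons read the same 0 h array and so share its error.

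**Figure D2:**
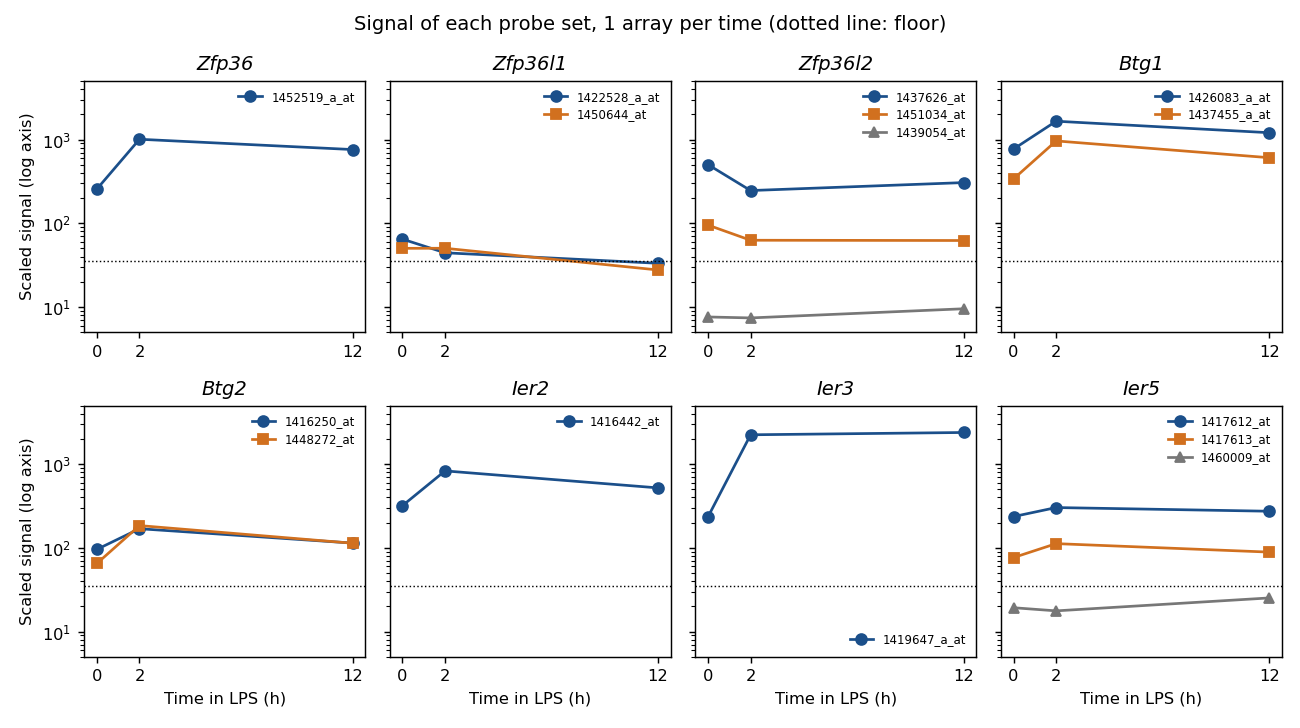
Scaled signal of each probe set of the 8 genes (log axis) at 0, 2 and 12 h of LPS, with 1 array per time and the floor of 34.96 as a dotted line. Ier3 stays near its 2 h level at 12 h. Zfp36, Btg1, Btg2 and Ier2, and Ier5 in its readable probe sets, peak at 2 h. Zfp36l1 and Zfp36l2 lie below their 0 h level at 12 h in their brightest probe sets.

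Within the tristetraprolin family the genes went in different directions. Zfp36 was read by 1 probe set (1452519_a_at), with a signal of 256 at 0 h, 1008 at 2 h and 759 at 12 h. It was lowest before LPS and highest at 2 h. It was 3.93-fold higher at 2 h and 2.96-fold higher at 12 h than at 0 h, ranks of 61 among 8422 genes and 106 among 8629 counted from the largest increase. From 2 h to 12 h it was 1.33-fold lower, a log2 difference of -0.41 that is beyond the SD between probe sets but under 2-fold.

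Zfp36l2 encodes the relative known for its roles in blood stem cells and lymphocyte development. Its brightest probe set (1437626_at) had a signal of 502 at 0 h, 246 at 2 h and 306 at 12 h, so the untreated array was the highest of the 3. It was 2.04-fold lower at 2 h, just past the size called, and 1.64-fold lower at 12 h. A second probe set (1451034_at) read 95.1, 62.7 and 62.2, which is 1.52-fold lower at 2 h and 1.53-fold lower at 12 h. The third (1439054_at) was under the floor on every array, at 7.59, 7.40 and 9.52, and gives no difference. Both readable probe sets were thus lower after LPS, but only one passed 2-fold.

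Zfp36l1, a relative that acts on AU-rich mRNAs in lymphocytes and in vascular development, had low signals. Its 2 probe sets read 64.6, 44.4 and 33.3 (1422528_a_at) and 50.2, 50.3 and 27.6 (1450644_at) at 0, 2 and 12 h. Both were under the floor at 12 h and above it at 0 h. At 12 h the first was at least 1.85-fold lower than at 0 h and the second at least 1.43-fold lower. At 2 h they did not go together, with log2 differences of -0.54 and 0.00, so Zfp36l1 was under 2-fold at 2 h, and at 12 h its bounds do not show whether 2-fold was reached. The opposite directions of Zfp36 and Zfp36l2 held under each scaling tried: with arrays set to one median, which moved the median difference of all genes at 2 h from -0.10 to 0.04, Zfp36 had a log2 difference of 2.12 and Zfp36l2 one of -0.89.

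**Figure D3:**
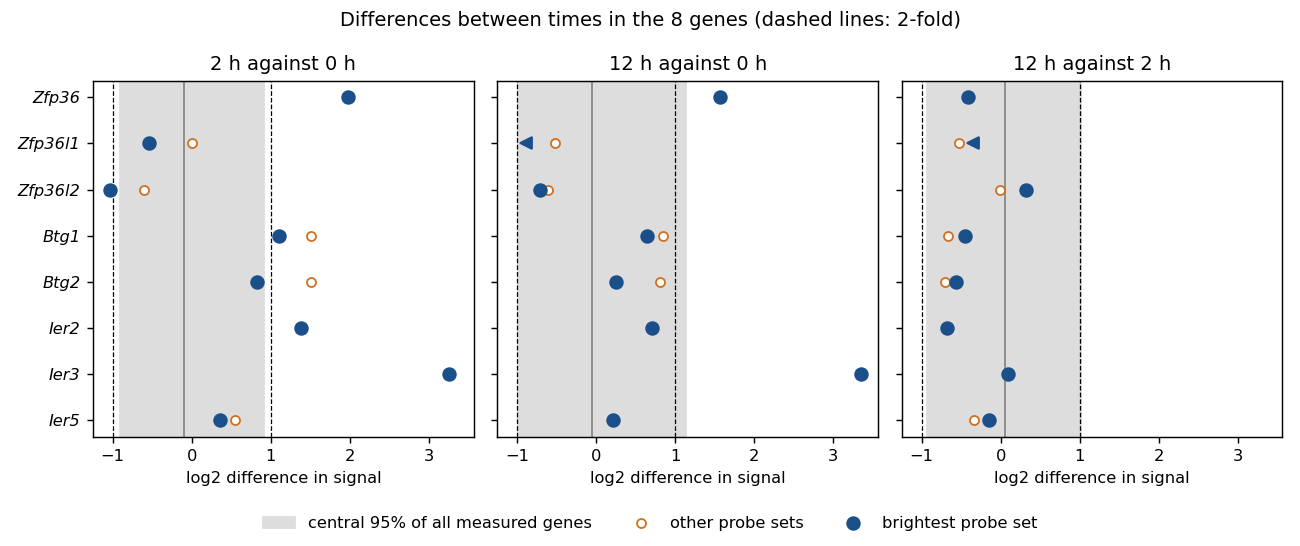
Log2 differences in signal of the 8 genes in the 3 comparisons, with the brightest probe set filled (a triangle if it is a bound) and other probe sets open. The open points of Zfp36l1 in both comparisons with 12 h are bounds too. The grey band is the central 95% of all measured genes, the grey line their median and the dashed lines 2-fold. At 2 h Zfp36, Btg1, Ier2 and Ier3 lie above the band and Zfp36l2 below it, and at 12 h Zfp36 and Ier3 lie above it.

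Both BTG genes had higher signals at 2 h than at 0 h in every probe set. Btg1, abundant in resting lymphocytes and lowered on their activation, read 770, 1656 and 1207 by its brightest probe set (1426083_a_at) and 339, 963 and 607 by the other (1437455_a_at). Each placed 2 h highest and 0 h lowest. Btg1 was 2.15-fold higher at 2 h by the first and 2.84-fold by the second, and 1.57-fold and 1.79-fold higher at 12 h.

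Btg2, a target of p53 and of growth factor signalling, had lower signals, and its call depends on the probe set. The brightest one (1416250_at) read 95.9, 169 and 114, and the other (1448272_at) 65.1, 185 and 114. They placed the times in the same order. At 2 h they gave 1.77-fold and 2.84-fold, so Btg2 was under 2-fold by the rule and above it by its second probe set. The log2 difference by the median over both was 1.16 in place of 0.82. At 12 h the values were 1.19-fold and 1.75-fold higher than at 0 h, both under 2-fold.

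Of the IER genes, Ier3 had the largest and the longest-held increase. Its 1 probe set (1419647_a_at) read 235 at 0 h, 2245 at 2 h and 2391 at 12 h, so both LPS arrays were far above the untreated one. It was 9.56-fold higher at 2 h and 10.2-fold higher at 12 h, ranks of 22 among 8422 genes and 18 among 8629. The levels at 2 and 12 h differed by 0.09 on the log2 scale, less than the SD of 0.31 between probe sets, and their order turned under median scaling and under quantile normalization, each at -0.01.

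Ier2, a short immediate early gene without introns, was read by 1 probe set (1416442_at) at 319, 831 and 521. It was 2.60-fold higher at 2 h and 1.63-fold higher at 12 h than at 0 h, and 1.60-fold lower at 12 h than at 2 h. Ier5, which encodes a protein that works with the phosphatase PP2A on heat shock factor 1, differed least of the 3. Its brightest probe set (1417612_at) read 237, 303 and 274 and a second (1417613_at) read 76.6, 112 and 89. The 2 h value was 1.28-fold and 1.47-fold above 0 h, and the 12 h value 1.16-fold above it in both. The third probe set of Ier5 (1460009_at) was under the floor on every array, at 19.3, 17.7 and 25.2.

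Between 2 and 12 h none of the 8 genes was 2-fold higher (2.65% of 8467 genes were) or 2-fold lower (1.98% were). This comparison reads the same 2 h array as the differences at 2 h and so shares its error, with the opposite sign. Differences beyond the SD of 0.31 between probe sets were seen in 6 genes. Zfp36, Zfp36l1, Btg1, Btg2 and Ier2 were lower at 12 h than at 2 h by more than that, which is 5 of 8 genes where 17.5% of all genes were, and Zfp36l2 was higher by its brightest probe set (24.1% of genes). Ier2 was lowest of these, with a log2 difference of -0.67, followed by Btg2 at -0.57 and Btg1 at -0.46. The other probe sets of Btg1 and Btg2 were 1.59-fold and 1.62-fold lower over this interval. The value of Zfp36l1, -0.34, is a bound from a 2 h signal of 44.4, near the floor, and was barely past the SD. With a pseudocount it was -0.23, within the SD, and the second probe set of Zfp36l1 gave a bound of -0.52. The value of Zfp36l2, 0.32, was barely past the SD too. The second probe set of Zfp36l2 gave -0.01, the median of the readable ones was 0.15, and the brightest gave 0.22 under median scaling, all within the SD. For Zfp36, Btg1, Btg2 and Ier2 the 12 h level thus lay between those at 0 and 2 h. Ier5 had the same order in both readable probe sets. Its log2 difference from 2 to 12 h was -0.15 by the brightest, within the SD, and -0.34 by the second, past it. For Ier5 the gap between 12 h and 0 h, at 0.21 on the log2 scale, was within the SD of 0.34. For Btg2 that gap depended on the probe set, at 0.25 by the brightest, 0.80 by the second and 0.53 by the median over both.

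The genes whose pair of differences (2 h and 12 h, each against 0 h) lay nearest to that of a called gene were read from 7318 genes above the floor on all 3 arrays, by Euclidean distance on the log2 scale. With 2 differences from 3 arrays this is a coarse measure. Nearest to Ier3 were Ptgs2, the inducible prostaglandin synthase (distance 0.12), Myc (0.28) and the chemokine gene Ccl4 (0.36), and 2 genes in all lay within the SD of 0.32. Nearest to Zfp36 were Tnip1, which encodes a partner of the ubiquitin editor A20 (0.09), the NF-kB subunit gene Nfkb2 (0.24) and the RNA sensor gene Ifih1 (0.26), with 5 genes within the SD. Tnip1 read 423, 1596 and 1198 at 0, 2 and 12 h. Ier2 had Rsbn1 (0.02), Zfand5 (0.12) and Pdcd1 (0.14) nearest, with 19 genes within the SD, and Btg1 had Dock5, Cish and Myo1g (0.06, 0.06 and 0.07), with 49. Zfp36l2 had Armc10 (0.01), Zfp777 (0.02) and Sppl3 (0.03) nearest, with 134 genes within the SD.

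Genes of mRNA decay, among them the CCR4-NOT deadenylase that tristetraprolin recruits and BTG proteins bind, were read as 3 lists. Of the deadenylases, the CCR4-NOT, PAN2 and PARN genes, 10 of 14 were read and none was 2-fold apart in any comparison. Their median log2 difference was -0.17 at 2 h and -0.12 at 12 h, beside -0.10 and -0.05 for all genes. Cnot7, a catalytic subunit that BTG proteins bind, read 401, 460 and 428. Genes of decapping and 5'-3' decay (10 of 16 read) had medians of -0.23 and -0.19, and the RNA exosome (10 of 13) -0.21 and -0.09, again with none 2-fold apart in any comparison. With 2.09% of all genes at least 2-fold higher and 1.69% lower at 2 h, and 3.01% and 2.4% at 12 h, a count of 0 among 10 genes does not set these lists apart. The largest differences from 0 h in these lists were Lsm2, with a log2 difference of -0.94 at 12 h, and Exosc8, with -0.90 at 2 h.

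Of 9 other mRNA-binding regulators with a value, Zc3h12a alone was at least 2-fold apart from 0 h, and higher. Of all genes, 2.09% were higher at 2 h and 3.01% at 12 h, and 1.69% and 2.4% were lower. Zc3h12a encodes Regnase-1, an endonuclease that cuts cytokine mRNAs. It read 20.6 at 0 h, under the floor, 188 at 2 h and 102 at 12 h, and so had a value only through the later arrays. It was at least 5.39-fold higher at 2 h and at least 2.91-fold higher at 12 h. The median of the list was -0.02 at both times. The stabilising AU-rich element binder Elavl1 read 569, 521 and 551, with none of the 3 far from the others. Among BTG and TOB relatives, Tob1, which like BTG proteins binds CCR4-NOT, was lower: it read 102 at 0 h, 34.7 at 2 h and 39.5 at 12 h. That is at least 2.92-fold lower at 2 h, where the signal was under the floor, and 2.58-fold lower at 12 h. Tob2 had log2 differences of -0.52 and -0.34, and Btg4 was under the floor on every array.

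The list of p38-MK2 genes also holds the 14-3-3 proteins, which bind phosphorylated tristetraprolin. Of its 13 genes with a value, 2 passed 2-fold upwards at 2 h (2.09% of all genes did) and none did at 12 h (3.01%). The median of the list was 0.08 at both times. Dusp1, the phosphatase that turns p38 off, read 158, 705 and 179, a 4.47-fold increase at 2 h and a value 3.95-fold lower at 12 h than at 2 h. Mapkapk2, the MK2 kinase gene, read 337, 699 and 454 and was 2.07-fold higher at 2 h. The p38 gene Mapk14 read 440, 399 and 387, and the 6 genes for 14-3-3 proteins had log2 differences from -0.29 to 0.41 at 2 h. Zfp36 was thus still 2.96-fold above 0 h at 12 h, a time at which Dusp1 had a log2 difference of 0.18; the difference between the 2 genes was not tested.

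Among 21 genes whose mRNAs carry AU-rich elements, 14 had a value at 2 h. Of these, 11 were at least 2-fold above 0 h (2.09% of all genes were) and 1 below (1.69%). At 12 h 10 of 15 were higher (3.01% of all genes were). The medians were 3.10 and 3.17 on the log2 scale. The list was drawn from known inflammatory and growth genes, so its increase is a description of those genes and says nothing about decay, which these arrays do not measure. From 2 h to 12 h, 3 of its 15 genes were at least 2-fold lower (1.98% of all genes were) and 3 higher (2.65%). Lif was 18.7-fold lower (721 against 38.7), Pim1 4.18-fold and Tnf 2.49-fold (3346 against 1343). Csf3 was 4.6-fold, Ccl2 2.68-fold and Il1a 2.60-fold higher. Zfp36 itself was 1.33-fold lower over this interval.

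The 29 other immediate early genes did not share one course either. Of 25 with a value at 2 h, 9 were at least 2-fold higher (2.09% of all genes were) and 2, Fos and Jun, lower (1.69%). Of the higher genes, Maff and Phlda1 were under the floor at 0 h and had a value only through the 2 h array. The median log2 difference of the list was 0.93, bounds included. At 12 h 5 of 23 were higher (3.01% of all genes were) and the median was 0.27. Between 2 and 12 h, 5 of 25 were at least 2-fold lower, where 1.98% of all genes were. These were Egr2 by 7.87-fold, Dusp1 by 3.95-fold, the AP-1 gene Junb by 3.55-fold (979 against 276), Gadd45b by 2.70-fold and Maff by at least 2.53-fold. Jun was 2.82-fold higher. Myc, with signals of 59.1, 656 and 533, was 11.1-fold above 0 h at 2 h and 9.02-fold at 12 h. Myc and Fos are also among the AU-rich mRNAs, and Dusp1 is also in the p38-MK2 list.

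**Figure D4:**
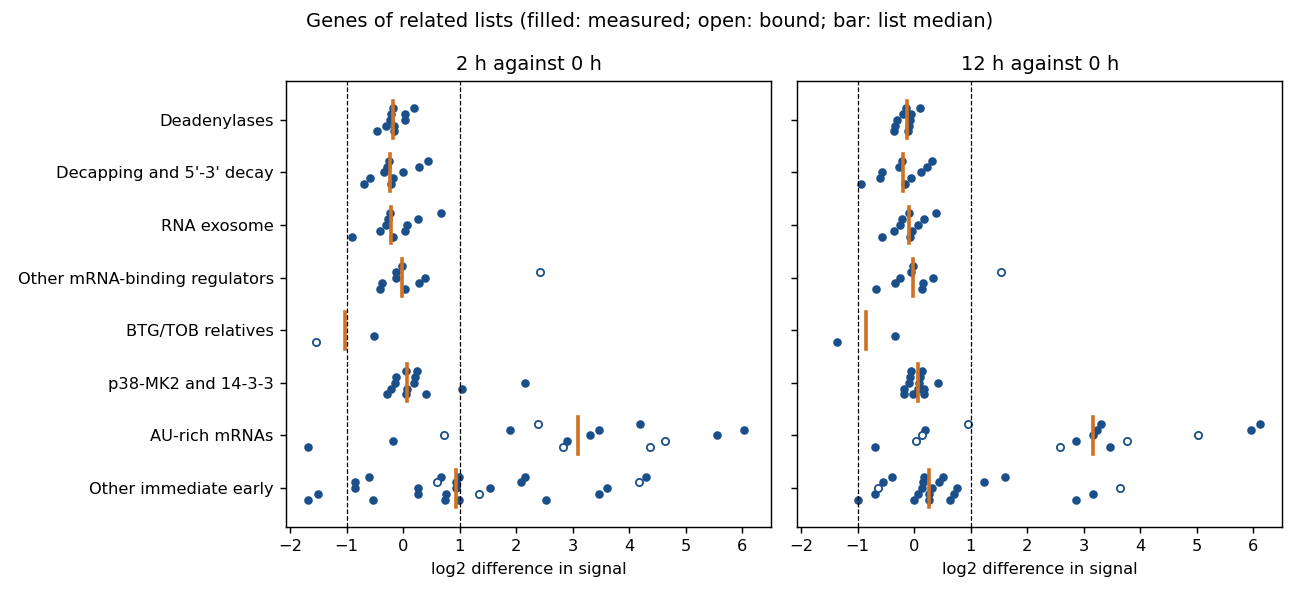
Log2 difference in signal from 0 h of each gene of 8 related lists at 2 h (left) and 12 h (right); filled points are measured on both arrays, open points are bounds, the bar is the list median and the dashed lines 2-fold. The 3 lists of decay enzymes stay inside 2-fold, and the median of the other immediate early genes is 0.93 at 2 h and 0.27 at 12 h.

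**Figure D5:**
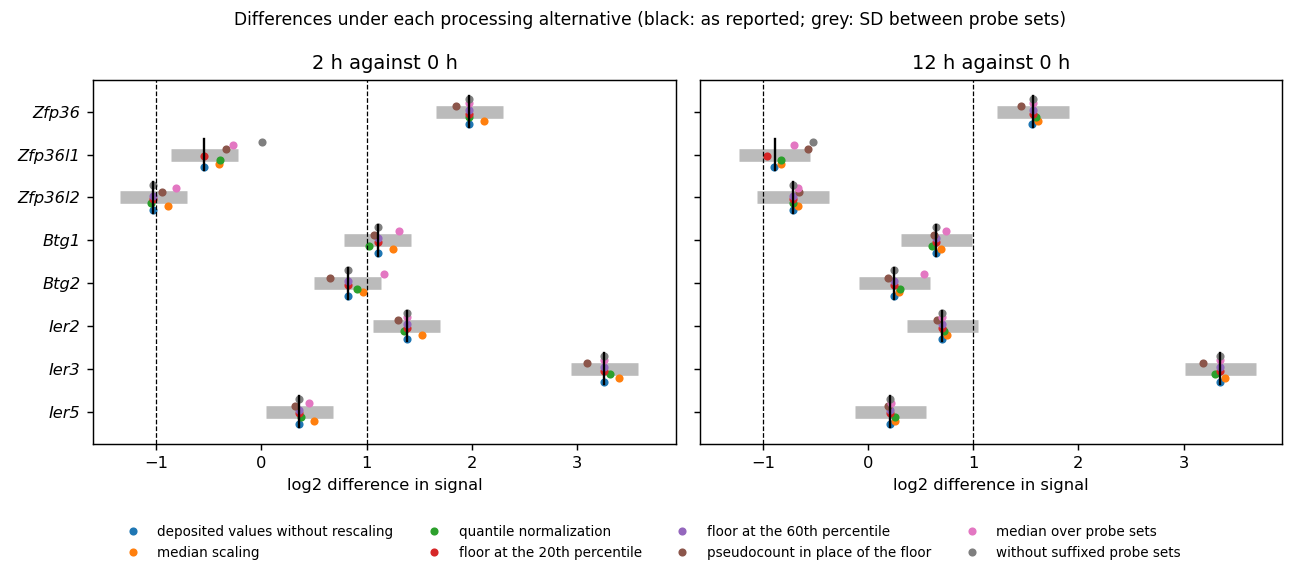
Log2 differences of the 8 genes from 0 h as reported (black bar) and under 8 other ways of scaling, treating low signals and reading probe sets (points), with the SD between probe sets in grey around the reported value. Zfp36, Btg1, Ier2 and Ier3 stay past 2-fold at 2 h under each, and Zfp36l2 and Btg2 cross that line.

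The calls of Zfp36, Btg1, Ier2 and Ier3 at 2 h and of Zfp36 and Ier3 at 12 h held under each of the 8 other ways of scaling, setting the floor and reading probe sets shown in the plot of alternatives. For Zfp36, Ier2 and Ier3, each with 1 bright probe set, both floors and both probe set rules leave the value as it is, so only the 3 scalings and the pseudocount could move it. At 2 h Ier3 ranged from 3.09 to 3.40, Zfp36 from 1.85 to 2.12, Ier2 from 1.3 to 1.52 and Btg1 from 1.02 to 1.31 on the log2 scale. Zfp36l2 ranged from -1.05 to -0.82 and was past 2-fold under 5 of the 8. Both floors and 1 of the 2 probe set rules left its value as it is, and no rescaling left it at -1.03. Quantile normalization kept the call, at -1.05. Median scaling (-0.89), the pseudocount (-0.94) and the median over probe sets (-0.82) brought it under 2-fold. Other fold thresholds move the counts. With 1.5-fold, 5 of the 8 genes were higher at 2 h (5.6% of all genes were) and 1 was lower (9.64%), 4 were higher at 12 h (8.32%) and 2 lower (10.3%), and from 2 to 12 h none was higher (10.2%) and Ier2 was lower (6.45%). The 2 genes lower at 12 h by that size were Zfp36l1 and Zfp36l2. With 3-fold, Zfp36 and Ier3 were higher at 2 h (1.03% of all genes) and Ier3 at 12 h (1.17%), and none was lower at 2 h (0.154%) or 12 h (0.313%). From 2 to 12 h none was 3-fold higher (0.65%) or lower (0.567%).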

How the data were processed

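RAW264.7 RNA at 0, 2 and 12 h of LPS was read on 1-colour arrays, 1 per time. Per the labels, targets were made from 5 µg of total RNA by an adapted Affymetrix procedure; summary software, the LPS dose and normalization were not given in the sources used here. Linear intensity values per probe set were deposited, without detection calls, each array with a 2% trimmed mean of 150.05. Here arrays were rescaled to one 2% trimmed mean over non-control probe sets (values moved by at most 0.16%), floored at the 40th percentile (34.96) and log2-transformed. Probe sets with 1 gene in the platform annotation (20393; 691 had several genes and 1606 were not listed) were named, 20364 of them through RefSeq gene identifiers (GRCm38.p6). The brightest probe set stood for a gene. A difference of at least 2-fold was called; no test was possible with 1 array per time, and that number limits the precision. Members and gene lists were chosen with earlier results of these data known. All members, up to 4 genes per list and comparison past 2-fold and the 3 nearest genes of each called member were named; other list genes are examples picked with their values in view. Alternatives were no rescaling, median scaling, quantile normalization, a floor at the 20th or the 60th percentile, a pseudocount of 32 in its place, 2 probe set rules and folds of 1.5 and 3. Counting was tested on simulated data. Python 3.11.15, numpy 2.4.6 and pandas 2.3.3 were used.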

Additional observations from a re-analysis of the deposited data

How the results depend on the processing

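Of 189 values of single genes under other scalings, floors and probe set rules, 186 moved by no more than the SD between probe sets and 3 by more. Many could hardly have moved, so this count is no measure of how firm the values are. Both floors, and leaving out the probe sets marked by a suffix as matching several transcripts, changed no gene but Zfp36l1. Going without rescaling changed signals by at most 0.16%, and median scaling shifted the genes nearly alike, for most by 0.14 at 2 h. Of the 3 that moved more, Btg2 at 2 h was 1.16 on the log2 scale by the median over probe sets. The others were Zfp36l1 without suffixed probe sets, at 0.00 at 2 h and -0.52 at 12 h. A floor at the 60th percentile left Zfp36l1 without a value. The number of the 8 genes lower at 2 h was 1, and 0 with median scaling, with a pseudocount, by the median of probe sets and with a 3-fold threshold. With 3-fold, 2 genes were higher at 2 h (2 in all apart), and 1 was higher at 12 h (1 in all). With 1.5-fold, 4 were higher and 2 lower at 12 h (6 in all), and 1 was lower from 2 to 12 h (1 in all). Of the 129 genes of the lists, 31 were apart in some comparison, 56 with 1.5-fold and 20 with 3-fold. The share of all genes apart in some comparison was not counted. At 2 h 4 of 111 with a value were lower (1.69% of all genes were), or 11 (9.64%) and 1 (0.154%) with these folds. At 12 h 4 of 110 were lower (2.4%), or 10 (10.3%) and 0 (0.313%), and 2 with a pseudocount. From 2 to 12 h, 4 of 113 were higher (2.65%), or 8 (10.2%) and 1 (0.65%), and 7 of 123 with a floor at the 20th percentile. Over this interval 12 of 113 were lower (1.98%), or 25 (6.45%) and 6 (0.567%). Over all genes, the split of higher to lower calls at 2 h was 176 to 142, 225 to 73 with median scaling and 200 to 86 under quantile normalization; from 2 to 12 h it was 224 to 168, and 178 to 226 with median scaling. Signals near the floor, as in Zfp36l1 and in the weakest probe sets of Zfp36l2 and Ier5, limit what can be read. No paired analysis was possible because each time has 1 array.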

Other observations

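Btg2 is a known p53 target, so other genes of the p53 pathway were read beside it, as a list without a test. Of 14 with a value at 2 h, 4 were at least 2-fold higher (2.09% of all genes were) and 1 was lower (1.69%). At 12 h 1 was higher (3.01% of all genes were) and 3 lower (2.4%). The medians were 0.18 and 0.12, and the list did not go one way. Cdkn1a, the p21 inhibitor of cyclin-dependent kinases, read 596, 1325 and 638 at 0, 2 and 12 h, Plk2 read 152, 440 and 357, and Mdm2, which marks p53 for degradation, read 434, 810 and 611, with a log2 difference of 0.90 at 2 h. Fas was at least 2.13-fold higher at 2 h from under the floor, and Gadd45a read 14.7, 105 and 2.40, above the floor at 2 h alone. Sesn1 was lower at both times, at 249, 96.2 and 93, and Pmaip1, which encodes the BH3-only protein NOXA, was level at 2 h and 2.75-fold lower at 12 h (178, 176 and 64.5). Zmat3 was 2.06-fold lower at 12 h. Because IER5 acts on heat shock factor 1, 8 heat shock genes with a value were read too. At 2 h Hspa1b alone was at least 2-fold higher (2.09% of all genes were), by at least 4.77-fold, with signals of 27.7, 167 and 41.9. At 12 h none of the list was (3.01% of all genes were), and its median was 0.24. Hsph1 read 743, 745 and 1180, a log2 difference of 0.67 at 12 h.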
